A study of Homo sapiens with 2 samples.

Results

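The cytosolic ribosomal protein genes encode the proteins of the 2 ribosomal subunits that translate nuclear messages. They were read in HaCaT, an immortal line of keratinocytes from human skin, with and without forced expression of FLI1. Members were taken from the gene table by symbol: RPL or RPS with a number and an optional closing A, X, Y or L form, together with RPLP0, RPLP1, RPLP2 and RPSA, without the RPS6K kinases. This gave 83 of 15159 genes, 51 of the large subunit and 32 of the small subunit, spread over 21 chromosomes. One library came from cells transfected with the plasmid MigR1-FLI1, which encodes a transcription factor of the ETS family. The other came from cells given the empty MigR1 vector. Both received 4 μg of DNA by lipid transfection, had the medium changed after 6 hours and gave total RNA on day 2. Transfection was transient and GFP was checked before RNA was taken. The sources used here do not give the share of cells that took up the vector, the promoter that drives FLI1 or the species of its coding sequence. In bulk RNA, fewer cells that respond and a smaller response per cell cannot be told apart.

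A ribosome holds 1 copy of most of its proteins, and cells keep their supply in balance: proteins made in excess of assembly are degraded. Most of their messages begin with a 5′ terminal oligopyrimidine (TOP) tract, a C followed by a run of C and T at the very start. Through this tract mTOR signalling and the RNA-binding protein LARP1 control translation of the whole family at once. In keratinocytes, as in other dividing cells, these genes are among the most abundantly transcribed.

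The windows below run from 250 bases before to 50 bases after the annotated start and come from RefSeq on GRCh38.p14. RPS23, RPS29 and RPLP1 are shown because they had the lowest ratios among members with a window, RPS27L, RPL28 and RPL35 because they had the highest, and RPL22 and RPL22L1 as a paralog pair. Capitals mark 2 things: every CGGAAG on either strand (CTTCCG when read on the printed strand), which contains the GGAA core that ETS factors bind, and, within 10 bases of the start, a C followed by at least 4 pyrimidines. Each is printed 5′ to 3′ on the strand of the gene.
RPS23 (chr5:82278305-82278604, minus strand): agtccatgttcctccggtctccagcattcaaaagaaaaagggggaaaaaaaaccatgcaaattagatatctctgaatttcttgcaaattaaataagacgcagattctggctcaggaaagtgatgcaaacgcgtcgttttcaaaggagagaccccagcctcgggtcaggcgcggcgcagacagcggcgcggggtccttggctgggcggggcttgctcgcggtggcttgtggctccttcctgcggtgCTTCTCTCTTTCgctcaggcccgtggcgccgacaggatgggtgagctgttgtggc
RPLP1 (chr15:69452568-69452867, plus strand): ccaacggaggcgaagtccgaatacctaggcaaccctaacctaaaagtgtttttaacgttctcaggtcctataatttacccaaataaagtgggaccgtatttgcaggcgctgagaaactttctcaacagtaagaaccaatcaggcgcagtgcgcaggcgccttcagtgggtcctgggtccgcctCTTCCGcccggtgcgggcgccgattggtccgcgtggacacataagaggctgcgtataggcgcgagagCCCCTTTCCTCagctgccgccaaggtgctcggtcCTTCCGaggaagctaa
RPS29 (chr14:49598661-49598960, minus strand): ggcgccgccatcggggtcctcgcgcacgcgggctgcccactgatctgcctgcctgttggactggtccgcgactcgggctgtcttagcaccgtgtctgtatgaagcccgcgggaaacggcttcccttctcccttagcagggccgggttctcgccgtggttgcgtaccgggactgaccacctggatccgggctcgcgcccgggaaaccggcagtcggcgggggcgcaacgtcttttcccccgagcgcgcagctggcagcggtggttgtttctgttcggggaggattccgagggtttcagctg
RPL35 (chr9:124861908-124862207, minus strand): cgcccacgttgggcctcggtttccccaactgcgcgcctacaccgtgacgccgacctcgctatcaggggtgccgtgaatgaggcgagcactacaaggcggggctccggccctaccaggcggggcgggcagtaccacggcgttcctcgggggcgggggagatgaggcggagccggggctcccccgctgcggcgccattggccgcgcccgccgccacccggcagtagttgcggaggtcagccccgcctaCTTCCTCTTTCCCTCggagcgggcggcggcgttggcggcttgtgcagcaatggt
RPL28 (chr19:55385682-55385981, plus strand): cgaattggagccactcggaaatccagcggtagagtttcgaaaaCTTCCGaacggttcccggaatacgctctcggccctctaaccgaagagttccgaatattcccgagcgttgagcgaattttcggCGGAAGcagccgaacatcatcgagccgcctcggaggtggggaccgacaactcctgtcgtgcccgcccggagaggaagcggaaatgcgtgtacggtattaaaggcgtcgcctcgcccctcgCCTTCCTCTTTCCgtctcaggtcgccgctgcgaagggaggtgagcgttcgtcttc
RPS27L (chr15:63157428-63157727, minus strand): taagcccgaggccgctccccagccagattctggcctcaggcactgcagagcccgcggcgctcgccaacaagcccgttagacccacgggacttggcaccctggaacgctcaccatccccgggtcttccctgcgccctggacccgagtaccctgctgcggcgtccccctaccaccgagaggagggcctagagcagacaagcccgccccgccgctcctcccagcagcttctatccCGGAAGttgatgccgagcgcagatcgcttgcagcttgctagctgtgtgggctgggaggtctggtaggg
RPL22 (chr1:6199546-6199845, minus strand): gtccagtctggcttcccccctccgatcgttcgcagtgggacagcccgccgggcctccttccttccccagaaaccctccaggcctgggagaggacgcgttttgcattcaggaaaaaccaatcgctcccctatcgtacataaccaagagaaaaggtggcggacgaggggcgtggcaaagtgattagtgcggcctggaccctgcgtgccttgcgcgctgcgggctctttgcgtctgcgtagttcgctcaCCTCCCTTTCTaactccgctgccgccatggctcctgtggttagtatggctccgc
RPL22L1 (chr3:170870146-170870445, minus strand): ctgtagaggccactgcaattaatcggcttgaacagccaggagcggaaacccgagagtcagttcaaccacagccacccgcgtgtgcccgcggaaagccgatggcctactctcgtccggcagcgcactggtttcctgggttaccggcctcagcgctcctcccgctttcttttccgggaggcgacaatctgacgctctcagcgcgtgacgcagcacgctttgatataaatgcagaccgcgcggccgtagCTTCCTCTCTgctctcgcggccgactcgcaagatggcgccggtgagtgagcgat

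The features in capitals were common in the family. Of the 83 genes, 66 had 1 or more such windows, 82 windows in all. A pyrimidine run at the start was found in 58 of the 66 genes (64 of 82 windows, 78.0%), against 31.4% of all 35114 windows of the same length. In the windows printed above, RPS23 has a run of 12 bases, RPL35 one of 15 and RPL28 one of 13, while RPS29 and RPS27L have none in this window. Windows were not matched to the transcript with the most reads, so a gene's main start may lie outside its window. For RPS29, whether the printed window is the start of its most read transcript was not checked. CGGAAG on either strand was present in 42 of the 66 genes, 23 of the large and 19 of the small subunit. By window this is 58.5%, against 19.5% of all windows. RPLP1 and RPL28 each hold 2 copies and RPS27L 1, and RPS23, RPS29, RPL35, RPL22 and RPL22L1 hold none here. The longer form CCGGAAGT was in 14.6% of member windows, against 4.14% of all, and contains CGGAAG. GATGGCGG, part of the YY1 motif, was in 12.2%, against 2.34%. TCTCGCGA was in 15.9%, against 1.15%. GGGCGG, the core of the GC box bound by SP1, was in 53.7%, against 45.0%, and TATAAA in 7.32%, against 11.5%. The 35114 windows belong to 27303 genes, more than the 15159 of the gene table. Shares among expressed genes alone were not computed, so these differences may not be particular to the family. A match is a description of letters and shows no binding. Members with CGGAAG had a median log2 ratio (FLI1 over vector control) of -0.016 in 42 genes, and members without it 0.0083 in 24 genes. By FPKM these medians were -0.010 and -0.0083. For CCGGAAGT the order was the other way round, with 0.014 in the 11 genes that hold it and -0.015 in the 55 that do not.

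FLI1 itself had 2452 reads in the FLI1 library and 64 in the vector control library, 38.2-fold higher. After rounding of the estimated counts the FLI1 library held 14677273 reads and the vector control library 14497105. Each group had 1 library, so no difference below has a replicate check and no p-value is given. Beside each log2 ratio stands a 95% exact (Clopper-Pearson) interval from the read counts of both libraries, scaled by TMM. It covers counting error only, since reads that carry no molecular identifier may be copies of 1 molecule. All 6 keratinocyte markers looked up were present, with at least 3583 reads each in the FLI1 library and at least 3301 in the vector control. Of the other cell types, the 4 melanocyte markers summed to 104 reads in the FLI1 library and 9.56 in the vector control, of which PMEL had 97 in the FLI1 library and 3 in the vector control. The 3 fibroblast markers in the table summed to 100 in the FLI1 library and 101 in the vector control. The 2 endothelial ones summed to 2 in the FLI1 library and 1 in the vector control, and CD14, the single leukocyte marker in the table, had 2 in the FLI1 library and 0 in the vector control. DCT was at 0 in the FLI1 library and TYRP1 in the vector control. Their part in the values below was not tested.

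As a family, the ribosomal protein messages differed by a few percent or less between the libraries. Of the 83 members, 82 passed the minimum of 20 reads in at least 1 library. The exception was RPL3L, the paralog of RPL3 made in heart and skeletal muscle, with 1 read in each library. Large subunit members took 3.09% of all reads in the FLI1 library and 3.14% in the vector control, a scaled ratio of summed reads of 1.002 (0.998 to 1.006). Small subunit members took 1.70% of the FLI1 library and 1.76% of the vector control, a ratio of 0.986 (0.980 to 0.991). By deposited TPM, which corrects for length, the large subunit made up 9.90% of both libraries and the small subunit 7.60% of the FLI1 library and 7.63% of the vector control.

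The median log2 ratio was -0.0042 over 50 large subunit members and -0.024 over 32 small subunit members, beside -0.0036 over all 11659 genes past the filter. With at least 1000 reads in 1 library it was -0.015 over 78 members and 0.014 over 3719 genes. None of the 82 members was at least 2-fold higher or lower, a size reached by 1.19% (higher) and 0.48% (lower) of all genes, and by 0.35% and 0.0% of genes with at least 1000 reads in 1 library. At the smaller size of 1.1-fold, 2 members were higher (RPL28 and RPS27L) and 3 lower (RPL39L, RPS23 and RPS29), against 21.1% and 22.5% of all genes past the filter. Most members are deeply read, so they are also set beside the 3719 genes with at least 1000 reads in 1 library. Of those genes 16.6% were at least 1.1-fold higher and 10.7% lower, and of the 78 members at that depth RPL28 was higher and RPS23 and RPS29 were lower. The interquartile range of log2 ratios at that depth was 0.070 for the members and 0.16 for all genes, and the standard deviations across genes were 0.063 for the members and 0.19 for all genes. Within 5% of the vector control lay 65 of the 78 members, and 45.6% of all genes at that depth. Within 10% lay 76 members and 74.3% of all genes. Genes of 1 family share regulation and are not independent, so these widths describe these libraries. The 1000-read cut does not match depth. Median reads were 7344 for the 78 members and 1818 for the 3719 genes in the FLI1 library, and 7554.5 and 1774 in the vector control. Counting error is wider at fewer reads, with a half-width of 0.128 at 1000 reads in each library. Its part in the wider spread of all genes was not tested. The standard deviation of all genes also includes FLI1 itself, at 5.26.

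**Figure D1:**
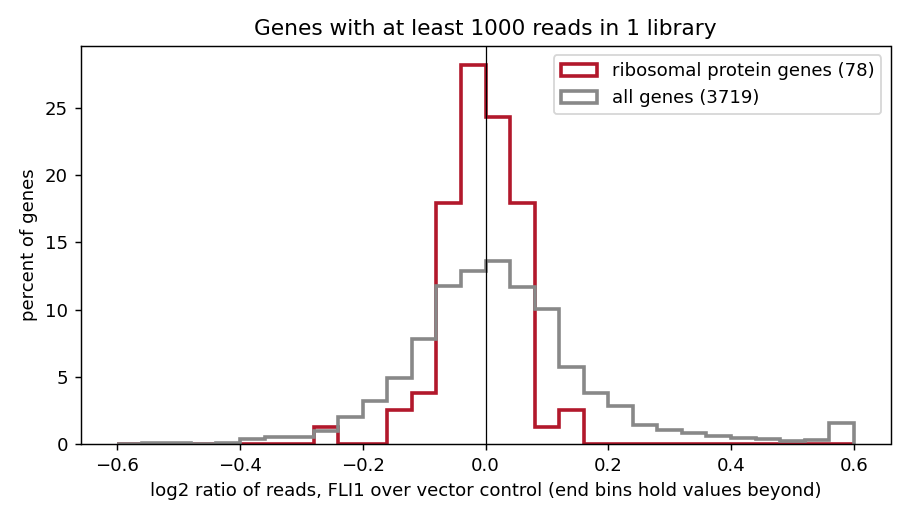
Distribution of log2 ratios of reads (x axis, FLI1 over vector control) as percent of genes (y axis) for the 78 ribosomal protein genes and all 3719 genes with at least 1000 reads in 1 library. The members form the narrower peak, between -0.26 and 0.15, while the end bins also hold values beyond the axis. The members are also more deeply read, with a median of 7344 reads in the FLI1 library against 1818 for all 3719 genes.

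Within the family, counting intervals off 0 lay on both sides of it. Most members are deeply read and counting intervals are narrow: with 5000 reads in each library the half-width is 0.057. In the large subunit the interval lay above 0 for 10 members, below 0 for 9 and across 0 for 31. In the small subunit it lay above 0 for 5, below 0 for 10 and across 0 for 17. Of all genes past the filter 16.5% lay above, 14.7% below and 68.8% across 0. Of genes with at least 1000 reads the shares were 26.6%, 19.0% and 54.5%. Of the 78 members at that depth, 14 lay above, 18 below and 46 across 0. The split rests on the scaling: with library totals in place of TMM, which lowers every ratio by 0.026 and the median of all genes with it, the large subunit had 6 above and 18 below and the small subunit 1 above and 14 below. With the median of ratios the large subunit had 10 above and 10 below and the small subunit 3 above and 10 below. Both other scalings lower all ratios, so members below 0 with TMM stay there and further members can join them. Only the members above 0 can lose their side. Of these 15 members, 7 had an interval above 0 under all 3 scalings, namely RPL28, RPL35, RPL23A, RPL10, RPL13, RPL13A and RPS27L. Of all genes past the filter 13.1% did so, and 20.5% of genes with at least 1000 reads. Of members not described singly, RPL13, RPL15, RPL9 and RPL24 lay above 0 at 0.06 to 0.07. RPL35A, RPL30 and RPL8 lay below 0 at -0.07 to -0.04, and RPS13, RPS14, RPSA and RPS3 at -0.08 to -0.03.

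**Figure D2:**
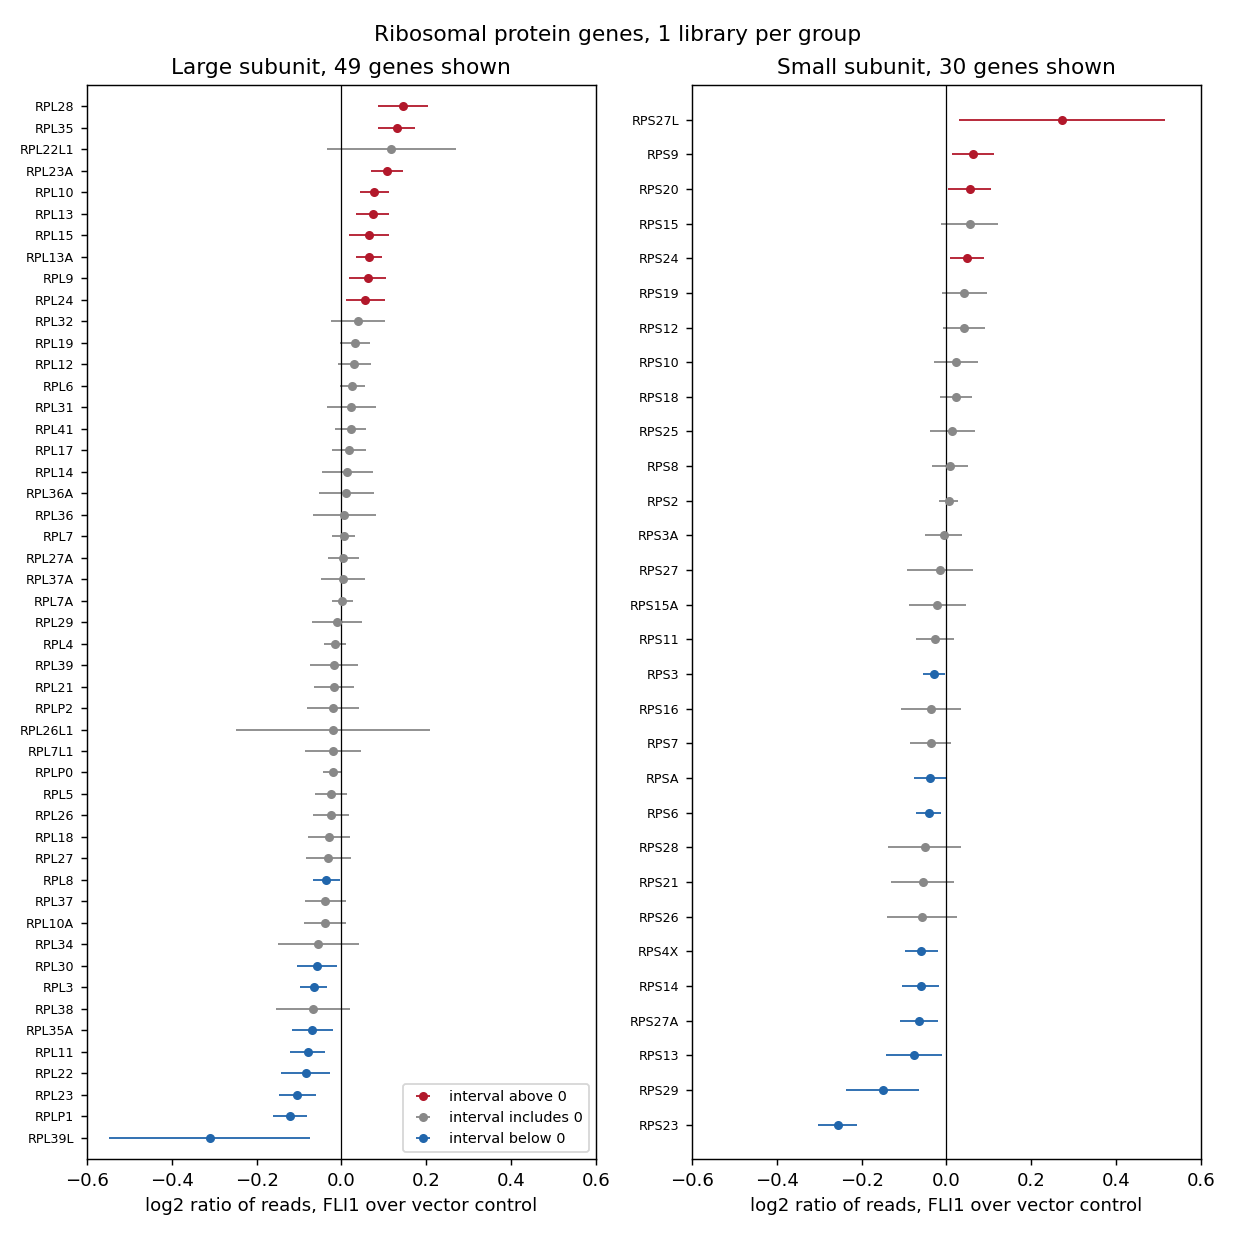
Log2 ratio of reads (x axis, FLI1 over vector control) of members past the filter, large subunit on the left and small subunit on the right, ordered by ratio, with 95% counting intervals as bars. Red marks an interval above 0, grey one that includes 0 and blue one below 0; RPL39L at -0.31 and RPS27L at 0.27, both paralogs with few reads, lie at the ends with wide bars, and RPS23 at -0.26 stands apart among deeply read members.

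RPS23, a small subunit protein at the decoding centre, had the largest difference among the abundant members. It had 6978 reads in the FLI1 library and 8378 in the vector control, a log2 ratio of -0.26 (-0.30 to -0.21), or -16.3%. Its FPKM was 160 in the FLI1 library and 194 in the vector control. The gene lies on the minus strand of chromosome 5 from 82273358 to 82278577 (GRCh38, GENCODE release 29). A single transcript with reads is listed for it, so no exchange between listed isoforms enters this value. Other small subunit members at the low end included RPS29, RPS27A and RPS4X. RPS27A, made as a fusion with ubiquitin, had 7736 in the FLI1 library and 8133 in the vector control (-0.06, -0.11 to -0.02). RPS4X, the X-linked member of the RPS4 pair, had 10403 in the FLI1 library and 10903 in the vector control (-0.06, -0.10 to -0.02). RPS6, the substrate of the S6 kinases, had 17799 reads in the FLI1 library and 18422 in the vector control (-0.04, -0.07 to -0.01). The differences of RPS27A, RPS4X and RPS6 ran from -4.37% to -2.86%.

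RPS29, a short zinc-binding protein of the small subunit head, was lower by reads but not by FPKM. It had 2099 reads in the FLI1 library and 2342 in the vector control (-0.15, -0.24 to -0.06), while its FPKM was 3263 in the FLI1 library and 3252 in the vector control. RPS29 was the single member with an interval off 0 whose sign differed between the scales, of 34 such members. Its message is the shortest of the family on the authors' length scale. Reads divided by FPKM and by the library's total give the length that the authors' FPKM assumed, and for RPS29 this was 43.8 bases in the FLI1 library and 49.7 in the vector control. Over the 82 members the length so implied ran from 43.8 to 7291 bases in the FLI1 library and from 49.7 to 7298 in the vector control. For the 76 members with an annotated transcript length it lay below the length of the leading transcript by a median of 317 bases in the FLI1 library and 311 in the vector control. Not every member went this way: RPS14 had an implied length of 1889 bases in the FLI1 library and an annotated length of 569. The median difference in implied length between libraries was -6.20 bases (FLI1 minus vector control).

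The gap between the scales was widest among the shortest messages. RPS29, RPS27, RPS21 and RPL39, the 4 members under 150 bases on this scale, had FPKM ratios above their read ratios by 0.05 to 0.15 on the log2 scale. For the 36 members of 150 to 500 bases the median gap was 0.0028, and for the 42 longer ones it was -0.017, with RPL28 at 0.08. Because the implied length is computed from reads and FPKM, the gap of RPS29 restates its implied lengths and the scaling. Which of its ratios lies nearer to the message level was not tested. RPL39, at the exit tunnel of the large subunit, had 5019 reads in the FLI1 library and 5105 in the vector control (-0.02, -0.07 to 0.04), and FPKM of 2968 in the FLI1 library and 2908 in the vector control. RPS27 had 2705 reads in the FLI1 library and 2748 in the vector control (-0.015, -0.09 to 0.06), and FPKM of 2205 in the FLI1 library and 2129 in the vector control. For both, the read ratio lies below 0 and the FPKM ratio above it.

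**Figure D3:**
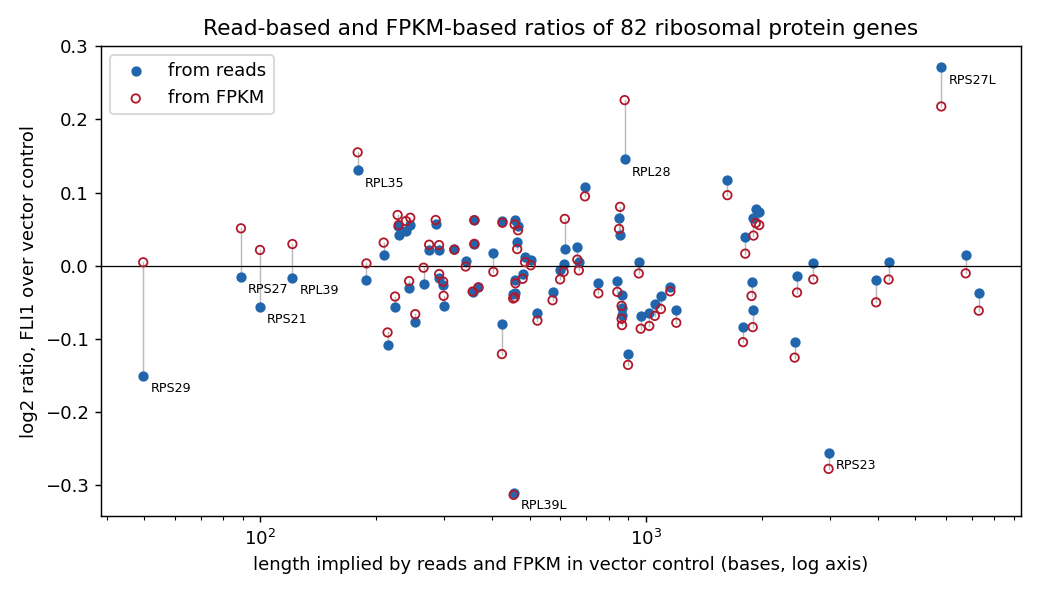
Log2 ratio (y axis, FLI1 over vector control) of the 82 members from reads (filled points) and from FPKM with 0.5 added (open points), joined by a line, against the length implied by reads and FPKM in the vector control (x axis, bases, log scale). At the short end the open points lie above the filled ones, by 0.15 for RPS29, while RPS23 and RPL39L lie low and RPL35 high on both scales.

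At the high end of the large subunit stood RPL28 and RPL35. RPL28 had 4907 reads in the FLI1 library and 4461 in the vector control (0.15, 0.09 to 0.20), or 10.6% more, and its FPKM ratio was larger, at 0.23. RPL28 is listed with several transcripts. The one with the most reads in the FLI1 library, NM_001363697, had 2202 estimated reads there and 1768 in the vector control (0.32, 0.23 to 0.42), or 44.9% of the gene's reads in the FLI1 library and 39.6% in the vector control. The transcript NM_000991 had 2197 in the FLI1 library and 2168 in the vector control (0.03, -0.06 to 0.11). As the authors' estimation divided the reads of RPL28, the higher count sat mainly in 1 listed transcript. RPL35, a protein beside the tunnel exit, had 8852 reads in the FLI1 library and 8130 in the vector control (0.13, 0.09 to 0.17), all in 1 transcript, and FPKM of 3492 in the FLI1 library and 3137 in the vector control. It was the member with the highest FPKM in the FLI1 library. RPL35 is at chr9:124857880-124861981 (minus strand) and RPL28 at chr19:55385345-55403250 (plus strand).

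Other higher members of the large subunit had ratios of about 0.1 or less. RPL23A, which contacts the signal recognition particle at the tunnel exit, had 11737 estimated reads in the FLI1 library and 10953 in the vector control (0.11, 0.07 to 0.15). RPL10, which joins the large subunit late in its assembly, had 13610 estimated reads in the FLI1 library and 12964 in the vector control (0.08, 0.04 to 0.11). RPL13A, also known outside the ribosome as part of the interferon-gamma activated GAIT complex of myeloid cells, had 18195 in the FLI1 library and 17483 in the vector control (0.07, 0.04 to 0.10). The counts of RPL23A and RPL10 were not whole, which leaves the error of assigning reads outside their intervals. In the small subunit the highest members besides RPS27L included RPS9, RPS20 and RPS24. RPS9 had 6669 reads in the FLI1 library and 6424 in the vector control (0.06, 0.01 to 0.11). RPS20 had 6477 in the FLI1 library and 6268 in the vector control (0.06, 0.0048 to 0.11). RPS24, one of the genes mutated in Diamond-Blackfan anaemia, had 10479 reads in the FLI1 library and 10192 in the vector control (0.05, 0.01 to 0.09). Among RPS9, RPS20 and RPS24, no interval stayed above 0 when libraries were scaled by their totals.

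On the low side of the large subunit the acidic stalk protein RPLP1, which helps to recruit elongation factors, had 9555 reads in the FLI1 library and 10441 in the vector control (-0.12, -0.16 to -0.08). Its stalk partners differed less: RPLP2 had 4237 reads in the FLI1 library and 4316 in the vector control (-0.02, -0.08 to 0.04), and RPLP0 29542 in the FLI1 library and 30130 in the vector control (-0.02, -0.04 to 0.0025). RPL23 and RPL11 were lower as well. RPL23 had 8017 reads in the FLI1 library and 8663 in the vector control (-0.10, -0.15 to -0.06). RPL11 had 8914 in the FLI1 library and 9471 in the vector control (-0.08, -0.12 to -0.04). RPL5, the partner of RPL11 in the 5S particle, had 11235 in the FLI1 library and 11486 in the vector control (-0.02, -0.06 to 0.01). RPL3, which reaches the peptidyl transferase centre, had 16024 in the FLI1 library and 16857 in the vector control (-0.07, -0.10 to -0.03).

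Among the 4 members of each subunit with the highest FPKM, RPL35, RPS24 and RPS29 are described above and RPS2, RPS18, RPL7A, RPL39 and RPL41 had intervals that included 0. RPS2 had 31562 reads in the FLI1 library and 31607 in the vector control (0.0057, -0.017 to 0.028), with FPKM of 3241 in the FLI1 library and 3255 in the vector control. RPL7A had 25155 reads in the FLI1 library and 25247 in the vector control (0.0025, -0.023 to 0.028), and RPS18 11418 in the FLI1 library and 11311 in the vector control (0.02, -0.02 to 0.06). RPL41, the smallest protein of the ribosome, had 11761 estimated reads in the FLI1 library and 11650 in the vector control (0.02, -0.02 to 0.06). The order of levels was nearly the same in both libraries. Of 82 members, 80 moved by at most 3 places when ranked by FPKM within the family, and the largest move was 6 places. Among the 100 genes with the highest FPKM, 49 were members in the FLI1 library and 50 in the vector control, and 49 of these were the same.

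FPKM levels within the family ran widely. Outside the paralogs the lowest FPKM was that of RPL14, 46.4 in the FLI1 library and 46.7 in the vector control, from 4595 reads in the FLI1 library and 4575 in the vector control. The next was RPL37, with 61.3 in the FLI1 library and 64.0 in the vector control. Both were divided by long lengths: those implied in the FLI1 library were 6747 bases for RPL14 and 7291 for RPL37, whose leading transcripts are 7072 and 7686 bases in GENCODE. Across the 82 members the Spearman correlation between FPKM and implied length was -0.73 in both libraries. This is a description across genes of 1 library each, in which length enters both measures.

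The paralogs stood out by level and, in part, by ratio. Of 6 members with an L-type paralog symbol, 5 passed the filter, with FPKM from 3.64 to 64.1 in the FLI1 library and from 3.06 to 66.3 in the vector control. RPL39L, known mainly from testis in mouse, had 267 reads in the FLI1 library and 333 in the vector control (-0.31, -0.55 to -0.07). Set against its parent gene RPL39, the difference in log2 ratio was -0.29 (-0.54 to -0.05, a counting interval). RPS27L, a p53-inducible paralog of RPS27, had 311 estimated reads in the FLI1 library and 259 in the vector control (0.27, 0.03 to 0.52), and 0.29 (0.03 to 0.54) relative to RPS27. Its counts were not whole. RPL22L1 had 749 reads in the FLI1 library and 694 in the vector control (0.12, -0.03 to 0.27), while RPL22 had 4829 in the FLI1 library and 5147 in the vector control (-0.08, -0.14 to -0.03). The point values lay on opposite sides of 0, that of RPL22L1 with an interval across it, and the difference between them was 0.20 (0.04 to 0.36). RPL22 protein is known in mouse to hold down the message of its paralog. RPL22L1 made up 14.6% of the summed FPKM of the pair in the FLI1 library and 12.9% in the vector control.

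RPL26L1 and RPL7L1 did not separate from their parents beyond counting error. RPL26L1 had 314 reads in the FLI1 library and 320 in the vector control, and differed from RPL26 by 0.0048 (-0.23 to 0.24). RPL7L1, a relative of RPL7, had 3729 reads in the FLI1 library and 3802 in the vector control and differed from RPL7 by -0.03 (-0.10 to 0.05). RPL36AL, a near-copy of RPL36A outside the symbol rule, had 2046 reads in the FLI1 library and 1963 in the vector control and differed from RPL36A by 0.06 (-0.06 to 0.17). With about 300 reads in each library the half-width of an interval is 0.24, so smaller differences of RPL39L, RPL26L1 or RPS27L were not detectable at this depth.

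Readthrough loci share exons with 3 members. RPS10-NUDT3 had 141 estimated reads in the FLI1 library and 203 in the vector control (-0.52, -0.84 to -0.20), with RPS10 at 5986 in the FLI1 library and 5926 in the vector control (0.02, -0.03 to 0.07). Summed, they had 6126 in the FLI1 library and 6128 in the vector control (0.0073, -0.044 to 0.059). RPL17 and RPL17-C18orf32 summed to 9973 in the FLI1 library and 9937 in the vector control, a ratio of 0.01, and RPL36A and RPL36A-HNRNPH2 to 4030 in the FLI1 library and 4021 in the vector control, also 0.01. Counts were not whole for 12 of the 82 members: RPL10, RPL12, RPL14, RPL17, RPL23A, RPL31, RPL36A, RPL41, RPS10, RPS14, RPS27L and RPSA. Ribosomal protein genes have processed pseudogenes elsewhere in the genome, and how reads were divided between them is not given in the sources used here.

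For the 83 genes 230 transcripts are listed in the transcript table, up to 36 for 1 gene, and 31 genes have 1. Of 98 transcripts with at least 1000 estimated reads in 1 library, 0 differed 2-fold, and ratios ran from -0.26 for that of RPS23 to 0.32 for NM_001363697 of RPL28, against -0.26 to 0.15 for member genes at that depth. Ratios ran wider in both directions among transcripts with fewer reads. NM_001034996 of RPL14 had 130 estimated reads in the FLI1 library and 62.6 in the vector control (1.05, 0.61 to 1.51). Of the transcripts listed for RPS9, 1 had 160 in the FLI1 library and 45.6 in the vector control (1.80, 1.325 to 2.31). Another had 28.9 in the FLI1 library and 92.85 in the vector control (-1.66, -2.33 to -1.06). Over the 98 transcripts with at least 1000 estimated reads, shares of a gene's reads differed by a median of 0.128 percentage points. The largest difference among them was 5.26, again in RPL28. RPS19, mutated in Diamond-Blackfan anaemia, came next. Its NM_001022 held 28.5% of the gene's estimated reads in the FLI1 library and 33.8% in the vector control, while the gene as a whole had 5771 reads in the FLI1 library and 5637 in the vector control (0.04, -0.01 to 0.10). RPL11 was lower in 1 transcript, NM_001199802 (5813 estimated reads in the FLI1 library, 6578 in the vector control, -0.17), and higher in NM_000975 (3101 in the FLI1 library, 2894 in the vector control, 0.11). Such splits between overlapping transcripts are estimates whose error is not in the counting interval.

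Genes that share the TOP tract or serve the making and use of ribosomes were read beside the family. The 20 other TOP genes had a median of -0.016, with 2 intervals above 0 (EEF1A1 and TPT1), 7 below and 11 across it, beside 26.6% above and 19.0% below over all genes with at least 1000 reads, a depth that all 20 reach. The elongation factor EEF1A1 had 143408 reads in the FLI1 library and 137639 in the vector control (0.07, 0.06 to 0.08), and TPT1 21410 in the FLI1 library and 19778 in the vector control (0.12, 0.09 to 0.15). The poly(A)-binding protein PABPC1 had 19272 in the FLI1 library and 20934 in the vector control (-0.11, -0.14 to -0.08), and NACA, a subunit of the nascent-chain complex, 6703 in the FLI1 library and 7230 in the vector control (-0.10, -0.15 to -0.05). NPM1, a nucleolar chaperone, was at 0.0022. FAU, which carries RPS30 as a fusion with a ubiquitin-like protein and falls outside the symbol rule, had 2243 reads in the FLI1 library and 2326 in the vector control (-0.04, -0.13 to 0.04).

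The median of 42 ribosome biogenesis genes was 0.033, and between 0.0073 and 0.033 under all 3 scalings. Their intervals lay above 0 for 11, below 0 for 4 and across 0 for 27, beside the 16.5% above and 14.7% below over all genes past the filter and the 26.6% and 19.0% over genes with at least 1000 reads. SBDS, which helps release EIF6 from the large subunit, had 1682 reads in the FLI1 library and 1453 in the vector control (0.22, 0.12 to 0.32). PNO1 (0.21, 0.08 to 0.34) and BYSL (0.21, 0.06 to 0.36), both factors of small subunit maturation, were higher as well. UBTF, a factor of RNA polymerase I transcription, had 1983 reads in the FLI1 library and 2195 in the vector control (-0.14, -0.23 to -0.05). NCL, the nucleolar protein nucleolin and the most abundant of the list, was at 0.02, and NOP56, of the box C/D particle, at -0.08. All 7 genes listed as dedicated chaperones of ribosomal proteins had intervals that included 0, and their median was -0.0061. Intervals also included 0 for 68.8% of all genes past the filter and 54.5% of genes with at least 1000 reads. The least read of the 7 had 170 reads in the FLI1 library and 160 in the vector control. BCCIP, which serves RPL23, had 2275 estimated reads in the FLI1 library and 2297 in the vector control, and PDCD2, which serves RPS2, 1597 reads in the FLI1 library and 1608 in the vector control.

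The 16 genes of the mTOR, LARP1 and S6 kinase list had a median of 0.021, with 3 intervals above 0 (MYC, MTOR and RPS6KA3), 1 below (RPS6KB2) and 12 across it, beside 16.5% above and 14.7% below over all genes past the filter. MYC, which drives transcription of ribosome genes, had 4606 reads in the FLI1 library and 4111 in the vector control (0.17, 0.11 to 0.23). MTOR had 2680 estimated reads in the FLI1 library and 2530 in the vector control (0.09, 0.01 to 0.17), and RPS6KA3 was at 0.10. RPS6KB2, an S6 kinase, had 710 reads in the FLI1 library and 852 in the vector control (-0.26, -0.40 to -0.11), and the other S6 kinase gene RPS6KB1 829 in the FLI1 library and 769 in the vector control (0.12, -0.03 to 0.26), with an FPKM ratio of 0.33. LARP1 was at -0.0033 and EIF4EBP1 at -0.01. Message levels say nothing of kinase activity or of TOP translation, which were not measured here.

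**Figure D4:**
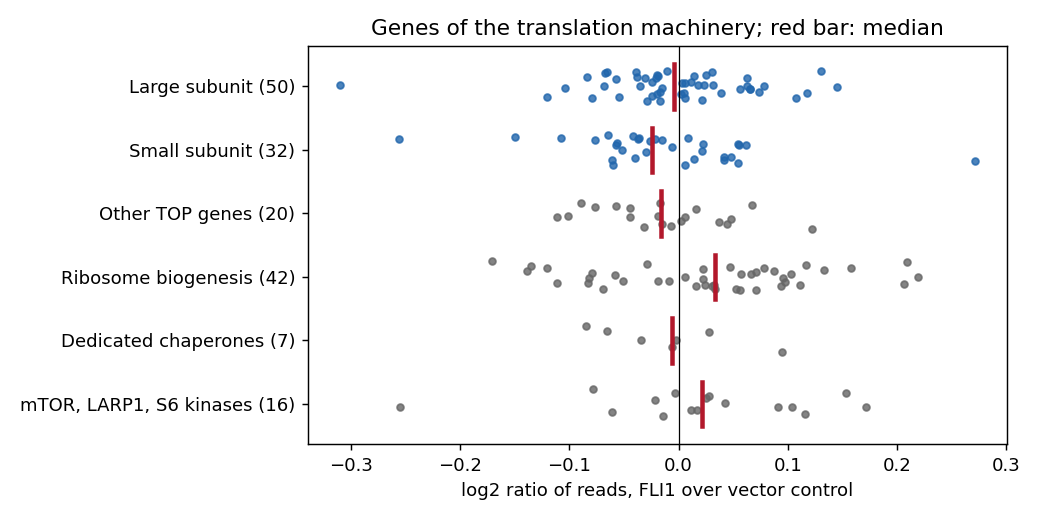
Log2 ratio of reads (x axis, FLI1 over vector control) of single genes (points) in the large and small subunit (blue) and in 4 lists of related genes (grey), with the number of measured genes and a red bar at each median. All medians lie between -0.024 (small subunit) and 0.033 (ribosome biogenesis), and points beyond 0.3 in size are limited to RPL39L.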

How the data were processed

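Per the labels' protocols, total RNA of 2 libraries was sequenced on a BGISEQ instrument, and per the submitters' processing notes the reference was GRCh38.p13. How reads were aligned and counted, against which gene models and with which strand setting, is not given in the sources used here. Per the file headers, the deposited gene and transcript tables hold read counts, FPKM and TPM for each library. The deposited counts are estimated counts: they were whole to within 0.005 reads for 84.5% of genes in the FLI1 library and 84.1% in the vector control. The design had foreseen plain counts, and the values were rounded to integers before scaling. FPKM and TPM are as the authors computed them, and TPM was used for shares alone.

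Effective library sizes came from TMM (edgeR 4.0.16 in R 4.3.3, with factors of 0.991 for FLI1 and 1.01 for vector control). The log2 ratio uses the rounded count plus 0.5, FLI1 over vector control, and the FPKM ratio uses FPKM plus 0.5. Intervals at 95% are exact conditional (Clopper-Pearson) and cover counting error only. Genes needed 20 reads in at least 1 library. With 1 library in each group there is no p-value. Alternatives were scaling by library totals or by DESeq2 1.42.0 size factors, other read minimums, FPKM, and leaving out paralogs or genes with counts that are not whole. The calculation was tested on simulated data.

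Members and gene lists were chosen with earlier results of these data known. Named members are, per subunit, the 5 highest and 5 lowest by the interval bound nearest to 0 and the 4 with the highest mean FPKM. Paralogs with their parents, members under the filter, readthrough loci and near-copies were also named. From each list came up to 4 genes with the bound farthest from 0 and the 2 with the highest mean FPKM. Some of these genes are not reported here singly and are not drawn in the plot of member ratios, but they are in all counts and medians. RPL5, RPL13, RPL14, RPL37, RPLP0, RPLP2, RPS6, RPS19, RPS21, LARP1, RPS6KB1, the members given by range and the transcripts named were chosen after their values were seen. Gene positions, transcript lengths and GC content came from GENCODE release 29 (GRCh38), and promoter windows from RefSeq (GRCh38.p14).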

Additional observations from a re-analysis of the deposited data

How the results depend on the processing

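With 1 library per group, nothing below is checked by replicates. The medians of both subunits and of the 4 lists each moved by less than 0.057, the half-width of an interval at 5000 reads, under every alternative run. Several lie so near 0 that their sign changed: the large subunit was at 0.0025 with a minimum of 1 read and 0.0030 without paralogs, the chaperones at 0.0044 by FPKM, and the mTOR list at -0.0018 by FPKM and -0.0044 by library total. Scaled by library total, 6 large subunit members had an interval above 0 and 18 below it, 1 small subunit member had one above 0, and the ratios of summed reads were 0.985 for the large and 0.968 for the small subunit. Scaled by the median of ratios, 3 small subunit members had an interval above 0 and the large subunit ratio of summed reads was 0.998. Without genes whose counts are not whole that ratio was 0.997. Library totals lower every ratio by 0.026, so positive values below this change sign, as RPS2 (-0.020) and RPL7A (-0.023). Of named members with an interval off 0, RPS29 changed sign: it was at 0.0047 by FPKM with 0.5 added or with 1 added. FPKM gives no counting interval and so no count of members. A minimum of 100 reads, or leaving out the paralog members, changed no count by over 1.5 times. No paired analysis was possible because each group had 1 library, and for the same reason no library could be left out. Depth limits RPL39L, RPL26L1 and RPS27L most among members past the filter, since 300 reads per library give a half-width of 0.24.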

Other observations

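Base composition was read for the 76 members whose leading transcript matched GENCODE by RefSeq identifier (92.7% of those past the filter). For some of them, as RPS14, that transcript is shorter than the length implied by the deposited FPKM. GC content ran from 42.1% to 63.1% with a median of 49.2%. The 38 members at or above the median had a median log2 ratio of 0.0041, and the 38 below it -0.017. Across the 76 members the Spearman correlation between GC content and the read ratio was 0.12, and between GC content and the FPKM ratio 0.12. Between implied length and ratio it was -0.026 from reads and -0.29 from FPKM over 82 members. All are descriptions across genes of the same 2 libraries, with no test.

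The pyrimidine run at the start was found in 36 of 41 large subunit genes and 22 of 25 small subunit genes with a window. The 58 genes with it had a median log2 ratio of -0.0086 and the 8 without it -0.020. The 9 genes with GATGGCGG, the YY1-type sequence, had a median of -0.058 and the 57 without it 0.0035, the widest gap between members with and without a sequence among those searched. This gap was seen after the values were known.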
